A study of Mus musculus with 29 samples.

Results

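The respiratory chain subunits are the rows of the count files whose gene symbol starts with Nduf, Sdh (Sdha to Sdhd), Uqcr, Cox4 to Cox8 or Atp5, without pseudogene symbols, set beside the subunits encoded by the mitochondrial genome. The symbol rule gave 92 of 24499 gene symbols. Of these, 82 are subunits (36 of complex I, 4 of complex II, 8 of complex III, 19 of complex IV and 15 of complex V), and 10 are assembly or associated factors that share the prefix and are kept apart (Ndufaf1 to Ndufaf7, Cox7a2l, Atp5s and Atp5sl). Ndufa4 and its paralog Ndufa4l2 carry a complex I name and are counted here with complex IV. With the 13 mitochondrially encoded subunits (ND1 to ND6 with ND4L, CYTB, COX1 to COX3, ATP6 and ATP8), 105 genes were described. All but Cox8c passed the filter on low counts: 81 nuclear subunits, 10 factors and 13 mitochondrially encoded subunits were tested among 16916 genes. Cytochrome c1 and the other subunits whose symbols do not start with these letters are outside the rule.

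The respiratory chain sits in the inner mitochondrial membrane. Complex I takes electrons from NADH and complex II takes them from succinate, the latter as part of the tricarboxylic acid cycle; complex III passes them to cytochrome c, and complex IV passes them to oxygen. Complexes I, III and IV pump protons, and complex V, the ATP synthase, uses the returning protons to make ATP. Complex II is built from nuclear genes alone, whereas the other complexes combine nuclear subunits with subunits transcribed inside the mitochondrion. Nuclear and mitochondrial transcripts therefore come from separate genomes and separate polymerases. Neurons depend on this pathway for most of their ATP, which is spent largely on ion pumping and synaptic transmission.

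RNA of the hypothalamus was measured by paired-end sequencing. All mice were untreated wild types of the C57BL/6 strain. The labels give them as male, singly housed and kept on a 12:12 light cycle, and the tissue was removed at about ZT6, the middle of the light phase. Ages were postnatal day 5 (P5; 3 libraries), 3 weeks (3), 4 weeks (4), 5 weeks (4), 2, 6, 12 and 18 months (3 each) and 24 months (2 used of 3). The labels describe separate samples of each age and say no more, so each p-value reflects only how these libraries vary, which may be technical.

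Start sites of Sdha, Sdhb, Sdhd and Uqcr11 are shown. They were chosen because complex II held the member with the smallest p between P5 and 3 weeks (Sdha) beside members with no called change (Sdhb, Sdhd). Uqcr11 had the largest called change of complex III. Sdhc, the complex II gene called lower, had no matched RefSeq window and is not shown. The sequences are from RefSeq (GRCm38.p6), from 120 bases before the annotated start to 30 bases of the transcript, 5′ to 3′ on the gene's strand. Capitals mark exact matches, on either strand, to 2 core motifs of factors known for nuclear respiratory genes: GCGCATGC for NRF1 and CCGGAAG for ETS factors such as GABPA.
Sdha: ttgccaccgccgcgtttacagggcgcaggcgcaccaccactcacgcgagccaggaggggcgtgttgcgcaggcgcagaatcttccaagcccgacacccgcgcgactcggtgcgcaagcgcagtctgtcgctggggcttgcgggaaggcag
Sdhb: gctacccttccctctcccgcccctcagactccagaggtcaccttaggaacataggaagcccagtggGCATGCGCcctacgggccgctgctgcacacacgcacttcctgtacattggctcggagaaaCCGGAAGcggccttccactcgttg
Sdhd: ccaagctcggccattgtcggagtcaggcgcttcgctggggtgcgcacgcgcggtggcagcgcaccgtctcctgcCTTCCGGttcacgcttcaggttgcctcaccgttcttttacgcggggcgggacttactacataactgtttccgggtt
Uqcr11: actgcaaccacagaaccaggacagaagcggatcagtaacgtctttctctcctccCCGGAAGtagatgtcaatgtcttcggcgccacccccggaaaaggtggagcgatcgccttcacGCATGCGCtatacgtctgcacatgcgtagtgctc
These stretches lie at chr13:74350211-74350360 on the minus strand (Sdha), chr4:140961151-140961300 on the plus strand (Sdhb), chr9:50603820-50603969 on the minus strand (Sdhd) and chr10:80406792-80406941 on the minus strand (Uqcr11). The Sdhb stretch holds an NRF1 core 54 bases before its start and an ETS core 6 bases after it. Sdhd holds an ETS core 46 bases before the start, and Uqcr11 holds an ETS core 66 bases and an NRF1 core 4 bases before it. None of the searched letters occurs in the Sdha stretch, which says only that these exact letters are not in this window.

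Over the RefSeq windows of 300 bases (250 before the start and 50 after it), 72 windows of 67 nuclear subunit genes could be matched. The NRF1 core was in 13.9% of them and in 2.71% of all 32851 windows of the table. For the ETS core the shares were 22.2% and 8.86%, and for a YY1 core (AAGATGGC, both strands) 13.9% and 2.75%. By complex, the YY1 core was in 20.6% of 34 complex I windows and in 17.6% of 17 complex V windows, and in none of the 3, 5 and 13 windows of complexes II, III and IV. At least 1 of the 3 motifs was in 41.7% of the subunit windows and in 13.3% of all windows. The ETS and YY1 letters can overlap, since AAG ends the first and begins the second, and the NRF1 core can overlap its own reverse complement. These are matches of letters, not measured binding.

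The 28 libraries used held 24661631 to 39783779 gene counts each, so 3 counts correspond to 0.0750 to 0.118 CPM (each count scaled to its library's normalised total). One file, 24 months replicate 5, held 2377580 counts in 1385 genes, with counts in 6 of the 105 member rows, and was left out. At P5, 2 of the 3 libraries (replicates 1 and 2) held Xist RNA and no counts of Y-linked genes, against their male label. Markers of the hypothalamus (14 genes, none at 0 in any library) were low at 2 months: their summed level was 110 to 250 CPM there, against 669 to 1070 CPM at 5 weeks and 444 to 620 CPM at 6 months. Markers of midbrain and hindbrain (14 genes) summed to 215 to 332 CPM at 2 months and 85.9 to 184 CPM at 5 weeks. Their sums at 6 and 12 months overlapped those at 2 months, with 89.5 to 313 CPM and 92.9 to 410 CPM. One 2-month library, replicate 11, was the highest of all 28 libraries for 72 of the 82 nuclear subunits and for 11 of the 13 mitochondrially encoded subunits, and it had the largest share of reads that did not map uniquely (13.7%). Results that rest on these libraries are given below with and without them.

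Levels of different genes can be compared only per length of their exons. Among the mitochondrially encoded subunits, COX1 (complex IV, catalytic) had the highest level per length at P5, 5358 CPM per kb. In contrast, COX2, which carries the first copper site of the same complex, had 196 CPM per kb, and ND4L of complex I had 22.5 CPM per kb. The 5 subunits COX2, COX3, ATP6, ND3 and ND4L share over 90% of their 50-base stretches with another annotated gene, such as a nuclear copy of mitochondrial sequence, and stood at 22.5 to 196 CPM per kb at P5. The 7 other subunits apart from ATP8 stood at 1243 to 5358 CPM per kb. ATP8 shares no 50-base stretch with another annotated gene and had 0.615 CPM per kb, the lowest of the 13. Its exon overlaps that of ATP6 by 21.1% of its bases. Whether reads of ATP8 and of the 5 shared genes were lost as not unique or as ambiguous was not tested, and for these 6 genes a change can be read only as a change of the reads that were counted. Among the nuclear subunits at P5, Cox6a1 (702 CPM per kb) and Cox8a (422) of complex IV and Atp5a1 (287) and Atp5b (269.7) of complex V had the highest levels per length, and the median was 63.0 CPM per kb.

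Summed over the members of each complex, the level was higher in all 3 libraries at 3 weeks than in all 3 at P5. The nuclear complex I subunits summed to 3019, 2829 and 2894 CPM at P5 and 3871, 3888 and 3937 CPM at 3 weeks. For complex II the sums were 581, 572 and 569 CPM and 885, 911 and 880.2 CPM. The complex III sums were 1071, 983 and 1031 CPM and 1277, 1226 and 1278 CPM. The increase was thus seen in every library for complexes I, II and III. Complex IV went from 2397, 2108 and 2219.7 CPM to 3035, 2856 and 3134 CPM, and complex V from 4103, 3839 and 4005 CPM to 4803, 4688 and 4821 CPM. The mitochondrially encoded subunits summed to 27708, 21958 and 23991 CPM at P5 and 42238, 36819 and 41001 CPM at 3 weeks.

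As ratios of means, 3 weeks over P5, these are 1.55 ± 0.034 for complex II (± 1 SD from the spread between libraries), 1.34 ± 0.046 for complex I, 1.34 ± 0.11 for complex IV, 1.23 ± 0.060 for complex III, 1.20 ± 0.044 for complex V and 1.63 ± 0.23 for the mitochondrially encoded subunits. Complex II had the largest ratio of the 5 nuclear sums, and complex V the smallest. In all later libraries the sums of complexes I and II stayed above the highest P5 library (3019 and 581 CPM): the lowest later values were 3309 and 817 CPM. For complexes III, IV and V the lowest later library (1017, 2336 and 3893 CPM) lay below the highest P5 library (1071, 2397 and 4103 CPM). In bulk tissue, a change in the number of cells of a type and a change in RNA per cell cannot be told apart.

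**Figure D1:**
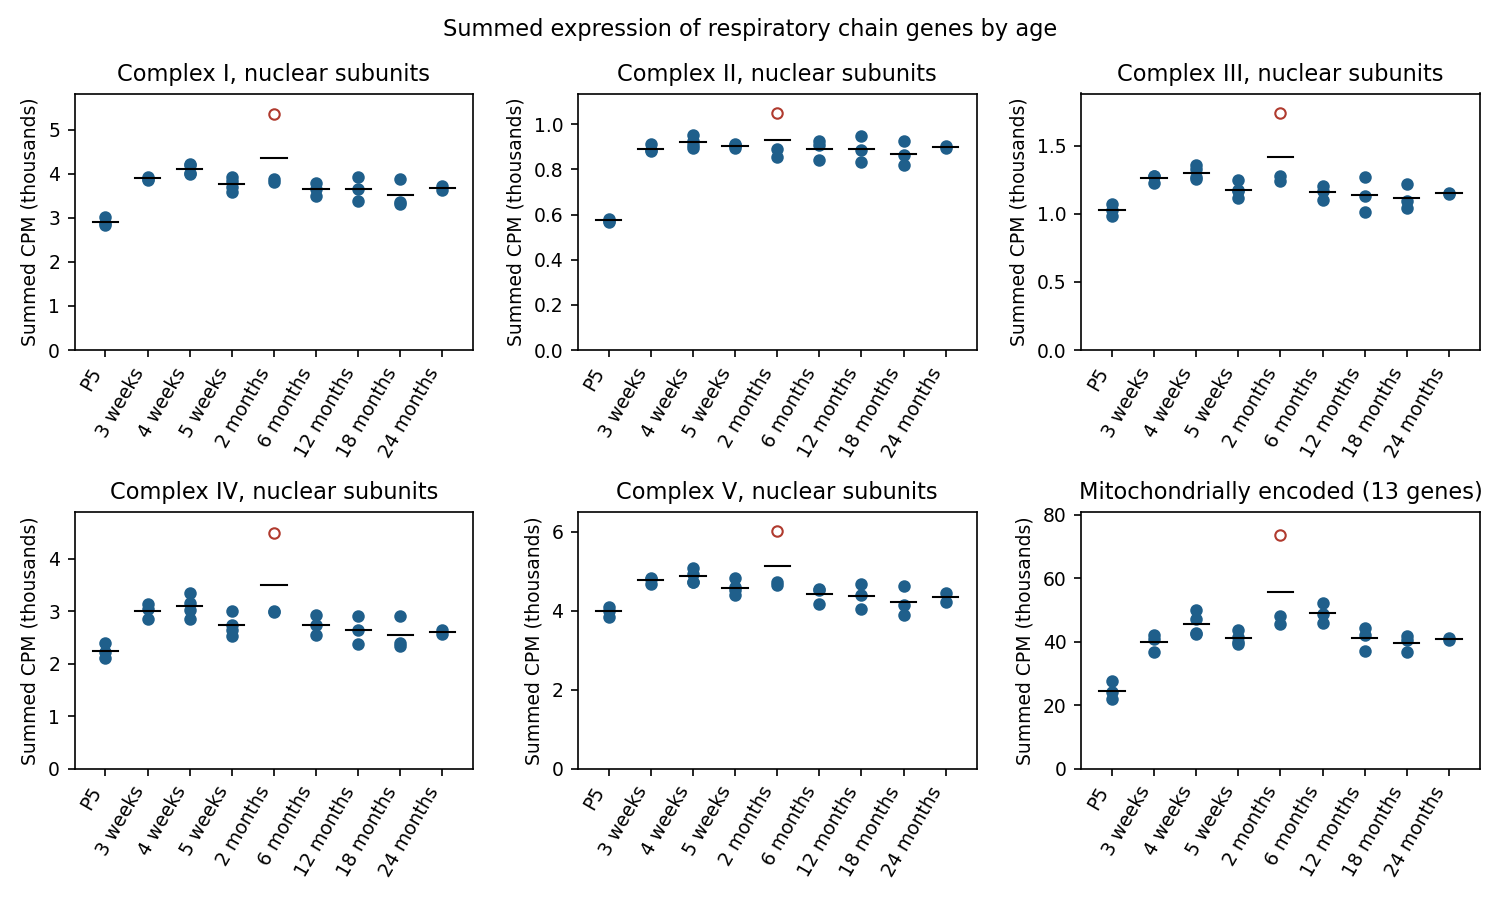
Summed CPM (axis in kilo-CPM) of the nuclear subunits of each complex and of the 13 mitochondrially encoded subunits in every library (points) at the 9 ages, with the mean of each age as a line. The open red circle is 2 months replicate 11, which lies above every other library in all 6 panels; the P5 libraries lie lowest for complexes I and II and for the mitochondrially encoded subunits.

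Between P5 and 3 weeks, 48 of 81 tested nuclear subunits rose and 2 fell (edgeR quasi-likelihood test, Benjamini-Hochberg adjusted p below 0.05). Of all 16916 genes tested, 59% were called in this comparison, 29.8% higher and 29.3% lower. The share of subunits called either way, 61.7%, was thus close to that of all genes, and the division between the directions was not: 59.3% of the subunits were higher and 2.47% lower. The median log2 change was 0.36 over the nuclear subunits, 0.73 over the 13 mitochondrially encoded subunits and -0.0090 over all genes tested. The libraries of the 2 ages also differed in reads of low mapping quality, 5.74% to 6.26% at P5 and 7.01% to 7.17% at 3 weeks. Age and this difference between the libraries cannot be told apart in this comparison. With P5 replicate 3, the 1 P5 library whose sex-linked counts match its label, as the only library of that age (its spread taken from the other ages), 33 nuclear and 11 mitochondrially encoded subunits were called, all of which are among the 50 and 12 called with the 3 libraries; in that fit 45% of all genes were called (22.6% higher) and 40.7% of the nuclear subunits (39.5% higher).

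In complex I, 26 of 36 subunits were higher, none was lower, and the median log2 change was 0.41. Ndufs7, which holds the last iron-sulfur cluster before ubiquinone, had 76.8, 74.3 and 74.1 CPM at P5 and 131, 158 and 139 CPM at 3 weeks. The libraries did not overlap, and the log2 change was 0.93 ± 0.10 (adjusted p = 4.48e-08), the largest of the complex. Ndufa12, an accessory subunit near the NADH-oxidising arm, went from 46.0, 49.7 and 52.1 CPM to 91.5, 93.6 and 86.8 CPM. Its change was 0.88 ± 0.17 (adjusted p = 9.64e-05), and it is named here after its values were seen.

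The core subunits of the NADH-oxidising arm rose by less. Ndufs1, which carries iron-sulfur clusters, had 94.6, 91.1 and 98.4 CPM at P5 and 137, 123 and 132 CPM at 3 weeks, a change of 0.46 ± 0.069 (adjusted p = 2.95e-06). Ndufv1, the subunit that binds NADH, changed by 0.53 ± 0.072 (adjusted p = 6.89e-07), from 115, 113 and 113 CPM to 160.3, 167 and 166 CPM. For both genes every 3-week library was above every P5 library. The smallest called rise of the complex was that of the membrane subunit Ndufc2, 0.21 ± 0.085 (adjusted p = 0.0366). In 6 months against P5, a comparison chosen after seeing the data, Ndufc2 had a difference of -0.0012. Ndufs4 and Ndufb2 stood at the low end, with log2 differences of -0.00035 and -0.046 that did not pass the test.

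The 4 complex II genes went separate ways. Sdha, the subunit that holds the flavin and oxidises succinate (chr13:74322254-74350280, GRCm38), had 255, 264 and 261 CPM at P5 and 591, 619.5 and 593 CPM at 3 weeks. Every library from 3 weeks on held at least 546 CPM, so P5 stood apart from all other ages. The log2 change was 1.21 ± 0.058 (adjusted p = 9.80e-15), the smallest p of all members. Sdhb, its iron-sulfur partner, had 119, 112 and 110.3 CPM and 122, 119 and 119 CPM, which overlap; the difference was 0.077 ± 0.10 (adjusted p = 0.502). Of the 2 membrane anchors, Sdhc fell from 108, 103 and 103 CPM to 86.3, 86.4 and 84.0 CPM, a log2 change of -0.29 ± 0.11 (adjusted p = 0.0244), without overlap. For Sdhd the values were 99.0, 92.8 and 95.1 CPM and 85.3, 86.5 and 84.1 CPM; the libraries did not overlap, but the difference of -0.17 ± 0.093 (adjusted p = 0.130) did not pass the test.

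In levels per length of exon, Sdha went from 63.0 CPM per kb at P5 to 146 CPM per kb at 3 weeks. Sdhb stood at 50.8 and 53.6 CPM per kb, Sdhd at 77.7 and 69.3, and Sdhc at 32.2 and 26.3, so the order of Sdha and Sdhd was reversed between the ages. As counts within the same library, Sdha stood at 213 to 237 per 100 counts of Sdhb at P5 and at 483 to 522 at 3 weeks. This ratio does not depend on the library size. It was 385 to 597 in all libraries from 3 weeks to 24 months, with the lowest value in 2 months replicate 11. Of the 4 genes, Sdha alone was called higher, so the larger sum of complex II at 3 weeks comes from this gene.

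In complex III, 6 of 8 subunits were higher and none was lower, with a median of 0.27. Uqcr11, a small accessory subunit whose start site is shown above, had 98.5, 90.3 and 93.3 CPM at P5 and 141, 131 and 142 CPM at 3 weeks, a change of 0.55 ± 0.14 (adjusted p = 0.00174). It did not stay there: its 6-month libraries held 108, 86.2 and 85.5 CPM, and in 6 months against P5 its difference was -0.012. The core proteins changed less. Uqcrc1 changed by 0.23 ± 0.088 (adjusted p = 0.0307) and Uqcrc2 by 0.19 ± 0.059 (adjusted p = 0.00758), the smallest called rise of the complex. Uqcrfs1, the Rieske iron-sulfur protein that takes electrons from ubiquinol, had a difference of 0.14 ± 0.091 (adjusted p = 0.189).

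In complex IV, 10 of 18 tested nuclear subunits rose and 1 fell, with a median of 0.46. The 1 that fell was Cox6b2, whose isoform Cox6b1 had no called change. Cox4i1, the main form of the regulatory subunit IV, had 354, 332 and 344 CPM at P5 and 542, 554 and 574 CPM at 3 weeks. Its change was 0.70 ± 0.11 (adjusted p = 5.37e-06), and the libraries did not overlap. Its isoform Cox4i2, known for induction at low oxygen, had 0.903, 0.949 and 0.977 CPM and 1.59, 1.81 and 1.99 CPM, a change of 0.93 ± 0.21 (adjusted p = 4.94e-04) at a level near 1 CPM.

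For subunit VIa, the liver-type isoform Cox6a1 went from 526, 493 and 459.5 CPM to 674, 647 and 698 CPM, a change of 0.45 ± 0.14 (adjusted p = 0.00944). The heart and muscle isoform Cox6a2 had 7.49, 3.54 and 7.12 CPM at P5 and 18.2, 14.3 and 25.6 CPM at 3 weeks. It had the largest called change of the complex, 1.68 ± 0.33 (adjusted p = 1.19e-04), and every 3-week library exceeded every P5 library. At 6 months it held 6.20, 10.6 and 10.7 CPM, and its difference from P5 was 0.60 (adjusted p = 0.122). Per 100 counts of Cox6a1, Cox6a2 had 0.717 to 1.55 counts at P5 and 2.20 to 3.67 at 3 weeks. Of the exon bases of Cox6a2, 10.3% are overlapped on the opposite strand by Itgad, and the strand setting of the counting is not given in the sources used here.

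In subunit VIb, the isoform of lower level fell. Cox6b1, the isoform found in most tissues, had 176, 147 and 165 CPM and 175, 158 and 177 CPM, with a difference of 0.064 ± 0.12 (adjusted p = 0.676) whose sign changed under other settings. Cox6b2, the testis isoform, fell from 7.56, 7.73 and 8.60 CPM to 3.64, 4.04 and 4.40 CPM without overlap. The change was -0.98 ± 0.21 (adjusted p = 2.26e-04), and Cox6b2 stood at 4.30 to 5.26 per 100 counts of Cox6b1 at P5 and at 2.08 to 2.57 at 3 weeks. In 6 months against P5 the change of Cox6b2 was -0.81 ± 0.20 (adjusted p = 0.00129).

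The remaining isoforms of complex IV gave smaller changes or few counts. Cox7a1, the heart and muscle form of subunit VIIa, had 1.34, 1.09 and 1.76 CPM and 2.47, 2.35 and 2.71 CPM, a change of 0.84 ± 0.26 (adjusted p = 0.00847). Cox7a2, its counterpart in other tissues, overlapped between the ages at 119, 105 and 116 CPM and 119, 96.2 and 125 CPM. Its difference was 0.0036 ± 0.14 (adjusted p = 0.984), with no steady sign across settings. Cox7b changed by 0.47 ± 0.12 (adjusted p = 0.00151). Its relative Cox7b2 had 2, 5 and 5 counts at P5 and 8, 6 and 3 counts at 3 weeks. Cox8a changed by 0.42 ± 0.13 (adjusted p = 0.00698), and Cox8b had 0, 2 and 0 counts at P5 and 3, 2 and 4 counts at 3 weeks, too few for a fold. Cox8c had 3 counts in 1 library at 24 months and none elsewhere. Cox5a, which binds the matrix side of subunit IV, had 120.1, 96.2 and 115 CPM and 96.8, 98.5 and 95.7 CPM, and its difference of -0.19 ± 0.10 (adjusted p = 0.124) did not pass the test. For Ndufa4 the difference was 0.27 ± 0.12 (adjusted p = 0.0610), and for Ndufa4l2 0.23 ± 0.18 (adjusted p = 0.276).

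Complex V had the smallest share of called subunits, 5 of 15, all higher, and a median of 0.18. Atp5h, subunit d of the stalk, had 133, 131 and 126 CPM at P5 and 209.7, 209 and 215 CPM at 3 weeks. The libraries did not overlap and the change was 0.70 ± 0.10 (adjusted p = 2.36e-06), but 47.9% of its 50-base stretches also occur in other annotated genes such as the copy Gm10250. The catalytic head rose as well: Atp5a1 (alpha) changed by 0.41 ± 0.066 (adjusted p = 9.06e-06), from 901, 876 and 918 CPM to 1192, 1195 and 1189 CPM. Atp5b (beta) had 1175, 1106 and 1146 CPM and 1416, 1343 and 1423 CPM, a change of 0.29 ± 0.077 (adjusted p = 0.00255).

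Subunit c, which forms the rotating ring, is made from 3 genes that encode the same mature protein. Of them Atp5g3 rose from 229.9, 218 and 227 CPM to 257, 272 and 248 CPM, by 0.20 ± 0.084 (adjusted p = 0.0399), the smallest called rise of the complex. Atp5g1 had 178, 143 and 165 CPM and 152, 141 and 154 CPM, with a difference of -0.12 ± 0.13 (adjusted p = 0.450). For Atp5g2 the difference was 0.18 ± 0.10 (adjusted p = 0.118). In 6 months against P5, Atp5g1 fell by 0.32 ± 0.13 on the log2 scale (adjusted p = 0.041).

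**Figure D2:**
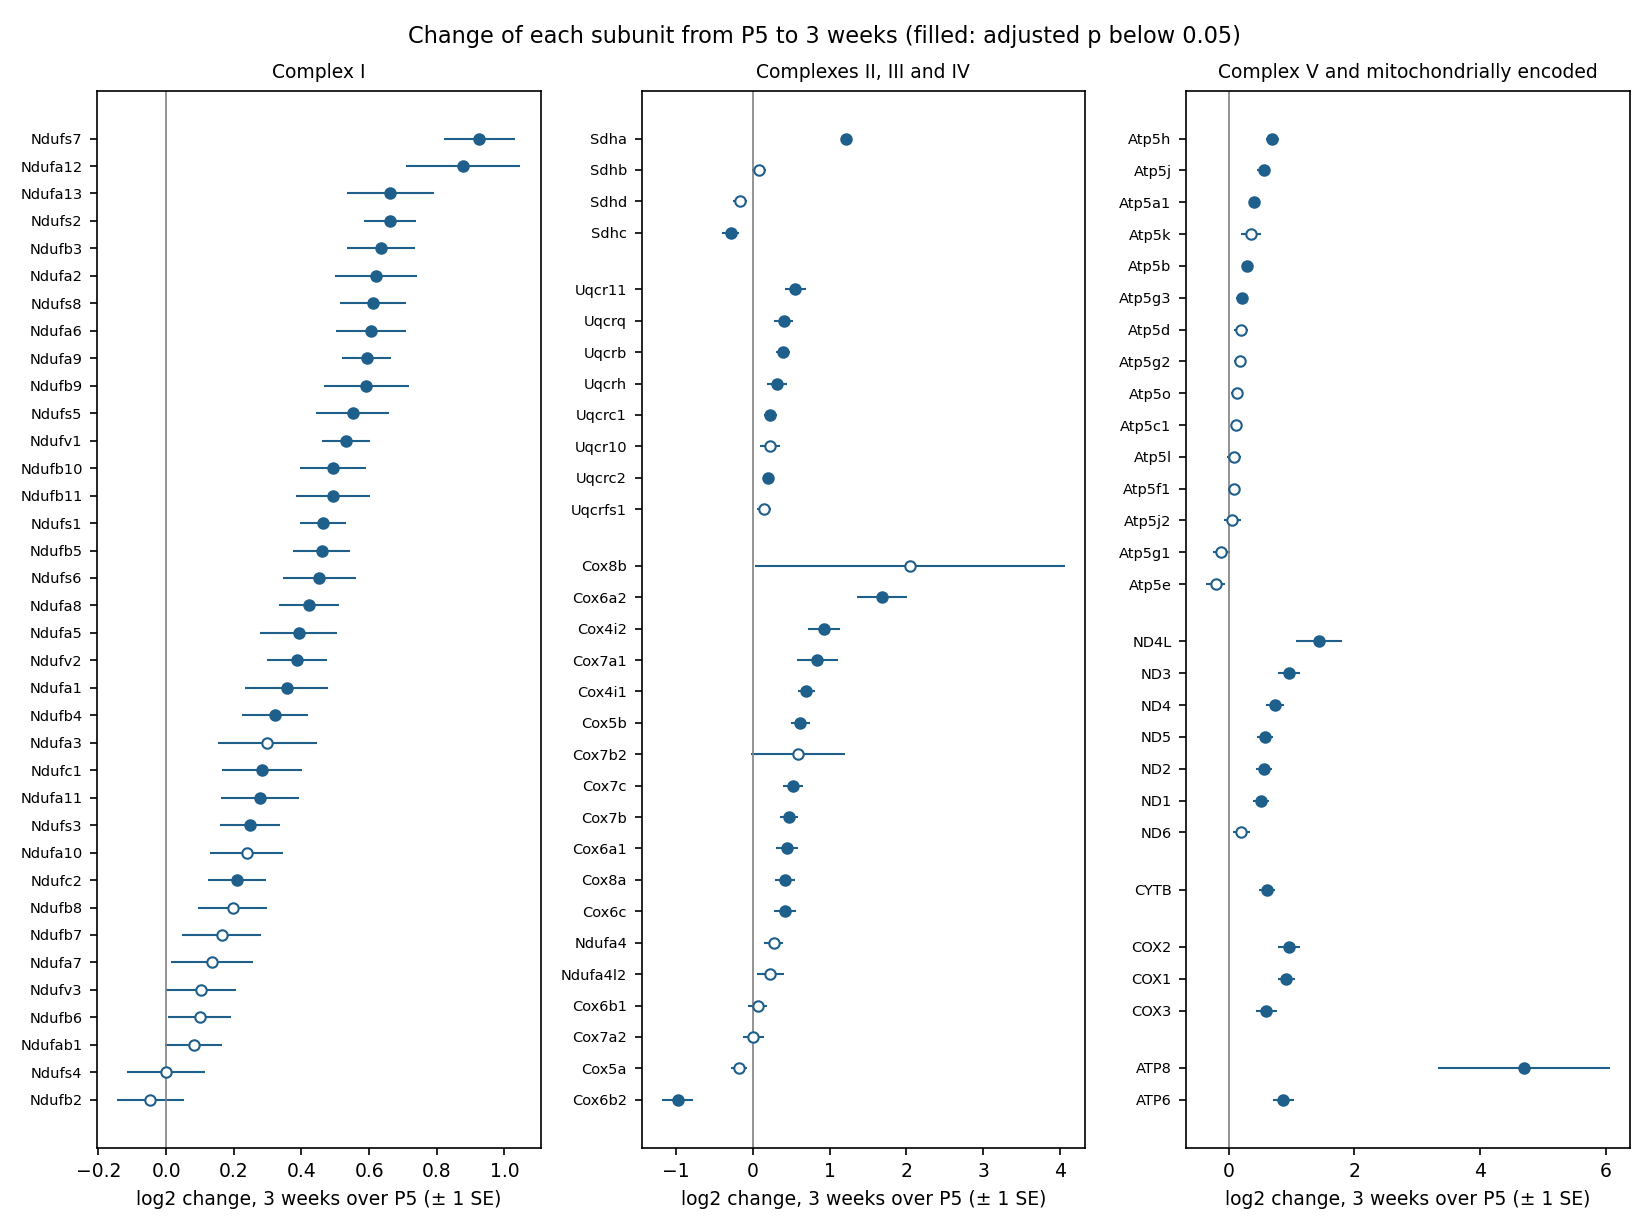
Log2 change from P5 to 3 weeks for each tested subunit (points, bars ± 1 SE from edgeR), sorted within complexes; filled points passed an adjusted p of 0.05. Complex I points lie almost all to the right of 0, Sdha (1.21) stands apart from the other complex II genes, and Cox6b2 (-0.98) is the lowest point; ATP8 and Cox8b rest on few counts.

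Of the mitochondrially encoded subunits, 12 of 13 were higher and none was lower, at a background of 29.8% of all genes. COX1 had 9224, 7493 and 8118 CPM at P5 and 16629, 13899 and 16347 CPM at 3 weeks, a change of 0.92 ± 0.13 (adjusted p = 1.95e-06). For the apocytochrome b of complex III, CYTB, the values were 5594, 4462 and 4681 CPM and 7851, 7256 and 7347 CPM, a change of 0.61 ± 0.12 (adjusted p = 1.33e-04). In both genes the libraries of the 2 ages did not overlap.

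Of the 7 ND genes of complex I, 6 rose. ND1 had the smallest called rise of the 13 genes, from 4082, 3201 and 3639 CPM to 5274, 4832 and 5482 CPM (0.51 ± 0.12, adjusted p = 0.00102). ND2 changed by 0.56 ± 0.13 (adjusted p = 6.99e-04), ND4 by 0.73 ± 0.14 (adjusted p = 1.03e-04) and ND5 by 0.58 ± 0.12 (adjusted p = 2.60e-04). ND6, the only protein gene on the other strand of the mitochondrial genome, had 731, 553 and 652 CPM and 814, 655 and 754 CPM, which overlap; its difference of 0.20 ± 0.13 (adjusted p = 0.204) did not pass the test. Among the genes whose sequence is shared with nuclear copies, COX2 changed by 0.96 ± 0.17 (adjusted p = 3.32e-05), COX3 by 0.60 ± 0.17 (adjusted p = 0.00477), ATP6 by 0.87 ± 0.16 (adjusted p = 8.50e-05), ND3 by 0.96 ± 0.17 (adjusted p = 4.31e-05) and ND4L by 1.44 ± 0.37 (adjusted p = 0.00195). ATP8 was called higher, with 7, 3 and 2 counts at P5 and 45, 106 and 152 counts at 3 weeks; at other ages its libraries held between 3 and 507 counts, and no fold is given.

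In each library, the mitochondrially encoded counts were also set over the summed counts of the 82 nuclear subunits. This ratio was 2.13, 2.24 and 2.48 in the P5 libraries and 2.71, 2.92 and 3.05 at 3 weeks. It was highest at 6 months, 3.65, 3.78 and 4.00, and stood at 3.08 to 3.41 at 18 months. No library after P5 fell to the P5 range, and the 6-month range overlaps that of 2 months (3.35 to 3.95) and lies above those of 12, 18 and 24 months (up to 3.41). The ratio is a description over the members and was not tested.

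**Figure D3:**
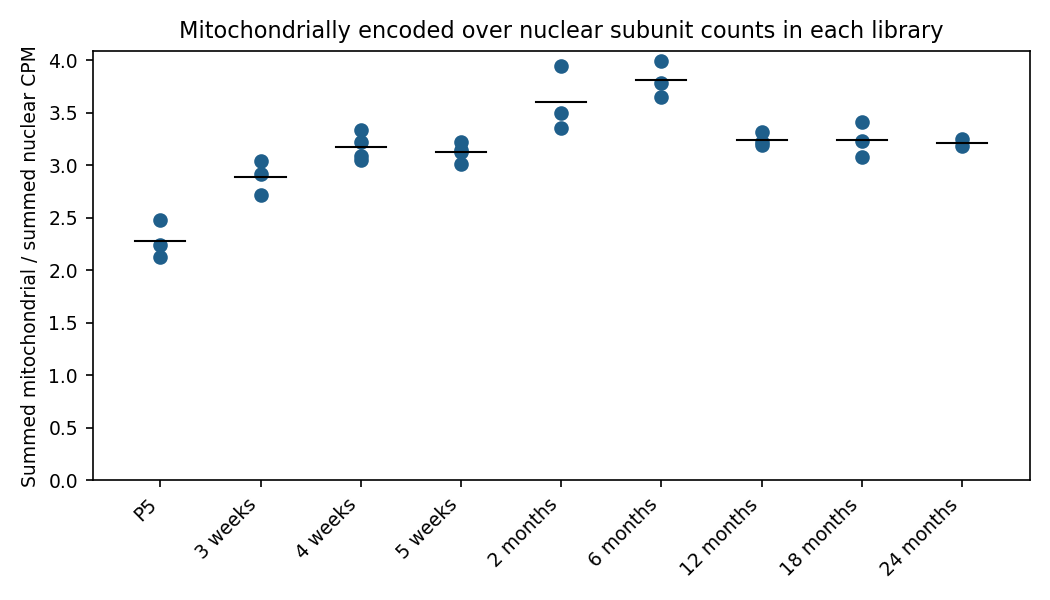
Summed mitochondrially encoded counts over summed nuclear subunit counts in each library (points; line, mean of an age) at the 9 ages. The 3 P5 libraries (2.13 to 2.48) lie below all others, and the 3 libraries at 6 months (3.65 to 4.00) lie highest except for 1 at 2 months (3.95).

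Counts for other genes of the pathway are to be read against the 29.8% of all genes called higher and 29.3% called lower between P5 and 3 weeks. Of the 10 factors under the same prefixes, 4 rose and 1 (Ndufaf6) fell, a share near that background, and Cox7a2l, which helps to join complexes III and IV, had a difference of -0.021 ± 0.092 (adjusted p = 0.858) with no steady sign. Of the listed assembly factors, all 4 of complex II rose, among them Sdhaf3 (0.58 ± 0.14, adjusted p = 7.85e-04). Those of complex III rose in 4 of 6 cases, with Uqcc1 at 0.91 ± 0.067 (adjusted p = 2.42e-11). Complex IV assembly factors were called in both directions, 10 higher and 6 lower of 19: the copper chaperone Cox17 rose by 1.82 ± 0.14 (adjusted p = 3.82e-11), and Cox15, which makes heme A, changed by -0.73 ± 0.075 (adjusted p = 9.09e-09). For complex I, 6 of 14 listed factors rose and 2 fell, a share called near the 59% of all genes, and for complex V 2 of 3 rose, including Atpaf1 (1.20 ± 0.18, adjusted p = 3.56e-06).

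Among the 15 tested genes of the mobile electron carriers (cytochrome c and coenzyme Q synthesis), 10 rose and 2 fell. Coq9 rose by 1.01 ± 0.074 (adjusted p = 2.15e-11). Of 17 tricarboxylic acid cycle genes, 11 rose and 1 fell, with a median of 0.33: Idh3b, of the NAD-dependent isocitrate dehydrogenase, rose by 0.76 ± 0.073 (adjusted p = 2.75e-09) and Suclg1, of succinyl-CoA ligase, by 0.74 ± 0.075 (adjusted p = 7.15e-09). Of 20 regulators of mitochondrial biogenesis, 4 were higher and 7 lower, a share called near the 59% of all genes, with a median of -0.088; the difference from the other lists was not tested. Esrra, a nuclear receptor that activates respiratory genes, rose by 1.30 ± 0.14 (adjusted p = 1.66e-08), Nrf1 changed by -0.60 ± 0.094 (adjusted p = 6.04e-06) and Pprc1, a coactivator, by -0.80 ± 0.12 (adjusted p = 6.00e-06).

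Markers of cell types changed over the same interval. All 10 myelin markers were higher, and they summed to 316 to 441 CPM at P5 and 20779 to 25961 CPM at 3 weeks. Of 10 astrocyte markers, 8 were higher and 1 lower, with sums of 1764 to 1864 CPM and 4135 to 4344 CPM. All 7 blood genes were higher (sums of 123 to 165 CPM and 472 to 835 CPM), 4 of 10 neuronal markers were higher and 4 lower (7916 to 8858 CPM and 7275 to 7806 CPM), and 1 of 8 choroid plexus markers was higher and 1 lower. The hypothalamus list had 6 of 14 genes higher, and midbrain and hindbrain 2 of 13 tested genes higher and 3 lower. Of the myelin list, Opalin was at 0 in at least 1 library; no astrocyte, neuronal, blood or choroid plexus marker was. The part of these cell types in the change of the subunits was not tested.

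**Figure D4:**
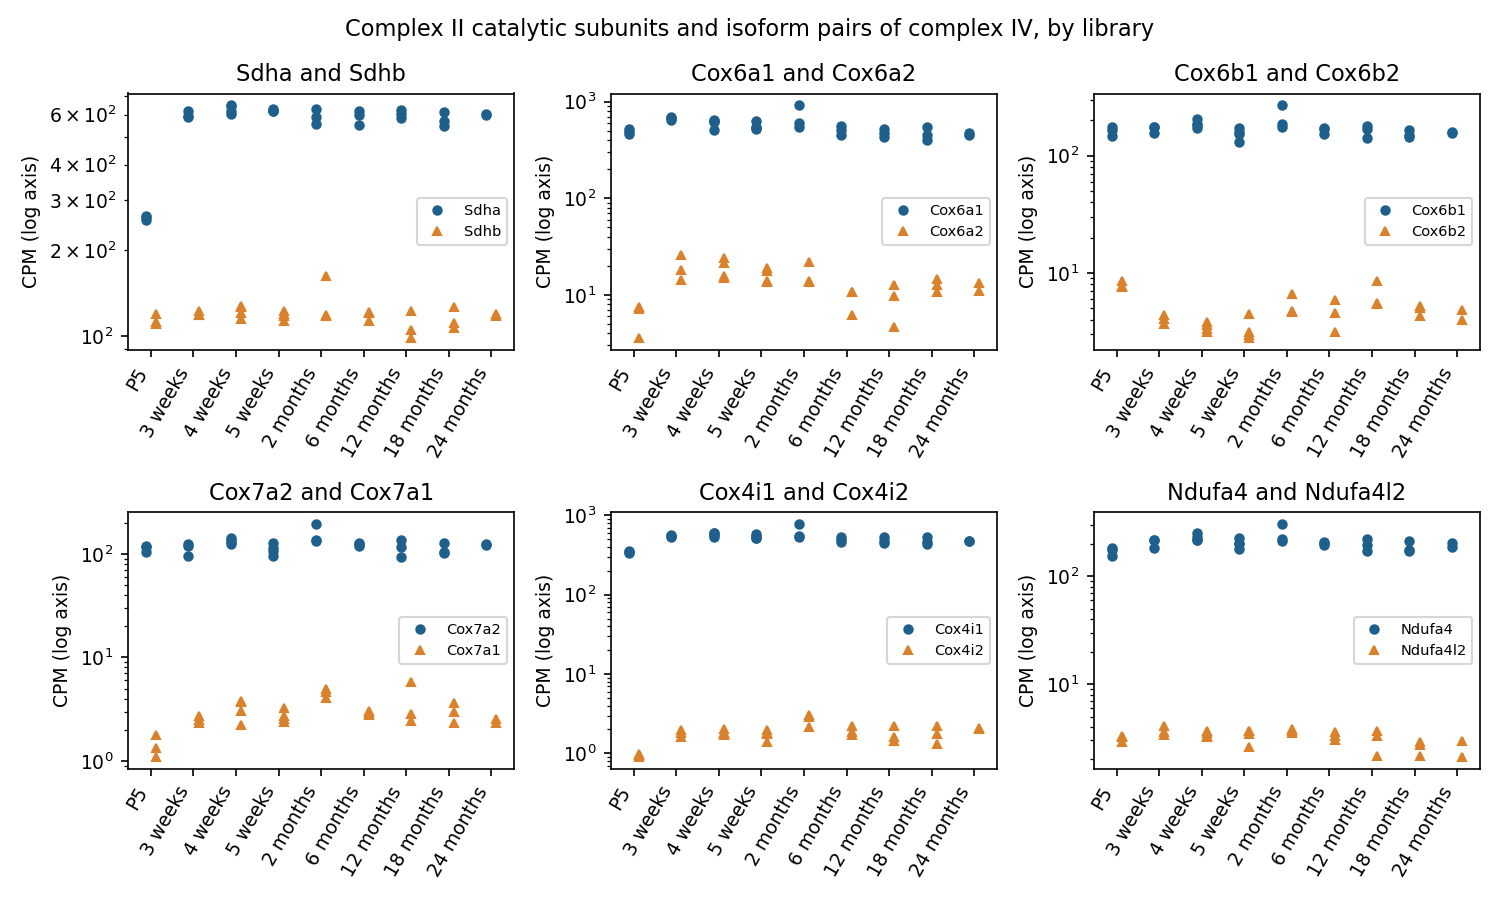
CPM (log axis) in every library at the 9 ages for Sdha with Sdhb and for 5 isoform pairs of complex IV (circles, main form; triangles, the other). Sdha stands at 255 to 264 CPM in the P5 libraries and at 546 CPM or more in all others while Sdhb holds 98.0 to 163 CPM over all libraries, Cox6a2 rises from 3.54 to 7.49 CPM at P5 to 14.3 to 25.6 CPM at 3 weeks, and Cox6b2 is higher at P5 than at 3, 4 and 5 weeks.

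From 3 to 5 weeks, no nuclear and no mitochondrially encoded subunit was called by edgeR or by DESeq2, at a background of 2.15% of all genes (0.703% higher and 1.45% lower). At an unadjusted p below 0.05 these were 2 and 1 subunits. The median log2 change was -0.054 over the 81 nuclear subunits, 0.052 over the mitochondrially encoded ones and 0.00078 over all genes. Between these ages, the 4-week complex I sums were 4006 to 4223 CPM. All lay above those of 3 weeks (3871 to 3937 CPM) and 5 weeks (3581 to 3938 CPM). The mitochondrially encoded sums at 4 weeks, 42520 to 49844 CPM, lay above those of 3 weeks (36819 to 42238 CPM) and overlapped those of 5 weeks (39145 to 43824 CPM). For complexes II to V the 4-week sums overlapped those of 3 weeks. The 4-week libraries were not tested against either age. Sdha held 624, 618, 631 and 618 CPM at 5 weeks, a difference of 0.051 ± 0.053 (adjusted p = 0.809) that overlaps the 3-week values. Blood genes were lower in 7 of 7 cases over this step. When only the libraries of these 2 ages were fitted, 2 of 79 nuclear subunits (2.53%) and 3.21% of all genes were called. The 2 ages also differed in reads of low mapping quality, 7.01% to 7.17% at 3 weeks and 9.31% to 11.2% at 5 weeks.

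Between 5 weeks and 2 months, 31 of 81 nuclear subunits and 7 of 13 mitochondrially encoded subunits were called higher and none was called lower, at a background of 16.6% of all genes (7.13% higher and 9.43% lower). By complex, these were 11 of 36 for complex I, 1 of 4 for complex II, 3 of 8 for complex III, 10 of 18 for complex IV and 6 of 15 for complex V. Most of these calls rest on 2 months replicate 11. Without that library, 6 nuclear subunits (5 of them among the 31, plus Atp5a1 in the lower direction) and 2 mitochondrially encoded subunits (ND2 and ND6) were called. That is 7.41% of the nuclear subunits, below the 14.9% of all genes called in the same fit. In the higher direction the shares were close, 6.17% of the nuclear subunits and 5.16% of all genes. The median log2 change without this library was 0.061 over the nuclear subunits and 0.0028 over all genes. Single 5-week libraries mattered as well: without replicates 1, 3 and 4 of that age, 20, 14 and 15 nuclear subunits were called, all higher, beside 5.03%, 4.05% and 4.82% of all genes called higher.

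The nuclear sum in replicate 11 was 1.37 times, and the mitochondrially encoded sum 1.58 times, the mean of the other 2-month libraries. Over the tested nuclear subunits, its median deviation from the median of all libraries was 0.55 on the log2 scale, against 0.042 and 0.066 in replicates 12 and 13. For the mitochondrially encoded subunits the deviations were 0.80 in replicate 11 and 0.10 in both others. Among the nuclear sums complex II deviated least, at 1.20 times the others, followed by complex V at 1.29, complex III at 1.38 and complex I at 1.40 times; complex IV deviated most.

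**Figure D5:**
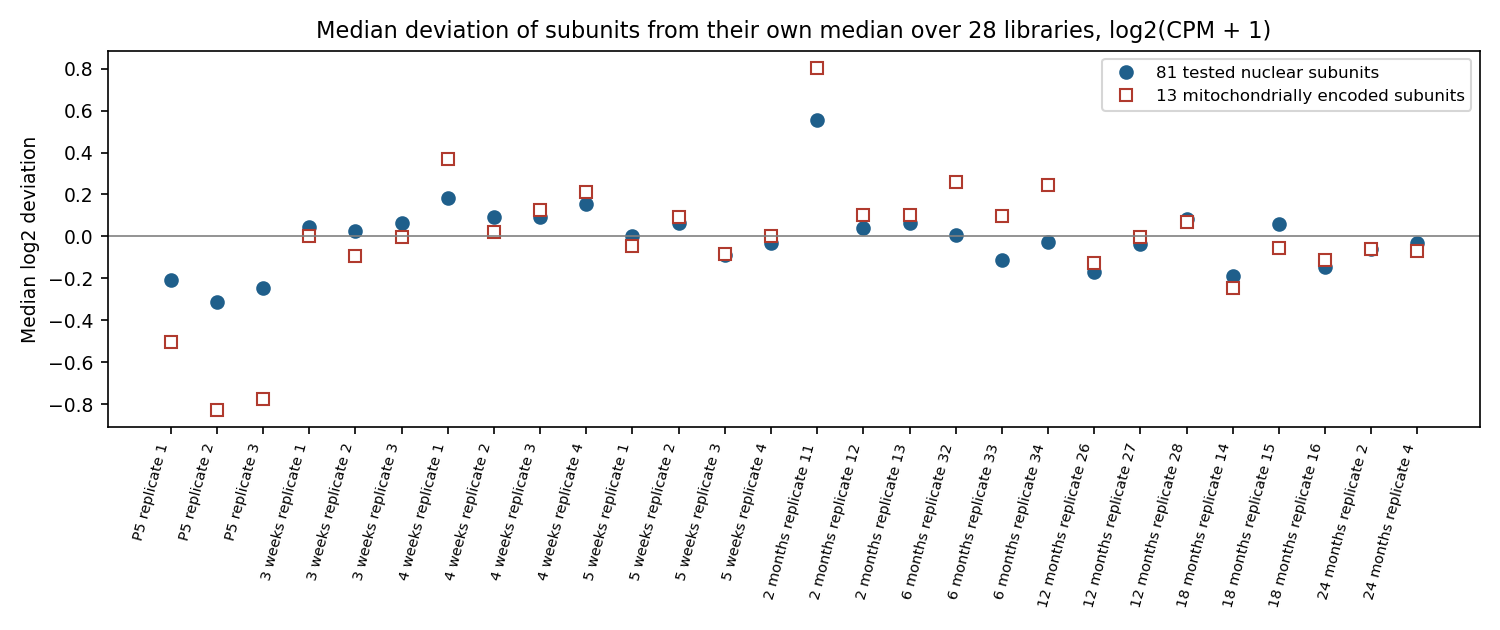
Median over members of the deviation, log2(CPM + 1), from each member's median over the 28 libraries, for nuclear (filled circles) and mitochondrially encoded subunits (open squares) in each library. The P5 libraries are lowest, and 2 months replicate 11 (0.55 and 0.80) is the highest library for both sets.

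The members called without replicate 11 are given here as single values. The share of nuclear subunits called in that fit lay below that of all genes, and 2 of 13 mitochondrially encoded subunits were called. Sdhc had 86.2, 88.8, 79.4 and 83.5 CPM at 5 weeks and 149.5, 101 and 106 CPM at 2 months, the first of these being replicate 11. Its change was 0.49 ± 0.10 (adjusted p = 0.00190), and 0.29 ± 0.083 (adjusted p = 0.0225) without that library. Uqcrh, the acidic hinge protein of complex III, changed by 0.63 ± 0.12 (adjusted p = 0.00100), from 133, 142, 119 and 135 CPM to 265, 169.8 and 179.6 CPM, and by 0.39 ± 0.10 (adjusted p = 0.0121) without it. Cox5a went from 95.4, 96.7, 86.9 and 91.6 CPM to 152, 113 and 127 CPM. Its change was 0.50 ± 0.10 (adjusted p = 0.00112), and 0.37 ± 0.096 (adjusted p = 0.0122) without replicate 11.

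In complex I, Ndufb10 had the largest called change: 114, 113, 103 and 107 CPM and 184, 128 and 136 CPM, 0.45 ± 0.09 (adjusted p = 0.00146) with replicate 11 and 0.27 ± 0.072 (adjusted p = 0.0151) without it. Ndufab1, the acyl carrier protein of the complex, gave 0.29 ± 0.070 (adjusted p = 0.00699) without replicate 11. ND6 and ND2 of the mitochondrial genome changed by 0.70 ± 0.12 and 0.67 ± 0.12, and by 0.51 ± 0.12 (adjusted p = 0.00712) and 0.42 ± 0.10 (adjusted p = 0.00822) without it. All 2-month libraries of these genes lay above all 5-week libraries. Atp5a1, by contrast, had 1141, 1168, 1157 and 1139 CPM and 1236, 1028 and 1029.8 CPM and changed by -0.17 ± 0.054 (adjusted p = 0.0362) without replicate 11, its highest 2-month library.

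The other members with the largest or smallest called change of their complex were not called without replicate 11. They were Ndufb5 (0.23 ± 0.078, adjusted p = 0.0495), Uqcrc1 (0.29 ± 0.082, adjusted p = 0.0186), Cox7a1 (0.75 ± 0.23, adjusted p = 0.0296), Cox7b (0.38 ± 0.11, adjusted p = 0.0218), Atp5k (0.54 ± 0.15, adjusted p = 0.0129), Atp5c1 (0.24 ± 0.08, adjusted p = 0.0418) and ND5 (0.35 ± 0.11, adjusted p = 0.0336). With 6 months in place of 2 months, a comparison chosen after seeing the data, no nuclear subunit was called beside 13% of all genes, and ND2, ND5 and ND6 were higher by 0.45 ± 0.12 (adjusted p = 0.0161), 0.37 ± 0.11 (adjusted p = 0.0308) and 0.87 ± 0.12 (adjusted p = 7.55e-05). At 6 months ND6 held 1352, 1408 and 1541 CPM, above its 741, 868, 721 and 816 CPM at 5 weeks.

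Marker lists also moved between these ages. Hypothalamus markers were lower than at 5 weeks in 13 of 14 cases, 5 of 13 midbrain and hindbrain markers were higher, and 5 of 10 astrocyte markers were higher and 1 lower. In the regulator list, 6 of 20 genes were higher and 1 lower, among them Esrrg (0.97 ± 0.18, adjusted p = 8.12e-04), an estrogen-related receptor of highly oxidative tissues, and the coactivator gene Ppargc1a (0.39 ± 0.10, adjusted p = 0.0100). Of the tricarboxylic acid cycle genes 3 of 17 were higher, and of the electron carriers none of 15 was called. Reads of low mapping quality made up 9.31% to 11.2% of reads in the 5-week libraries and 5.41% to 5.77% in the 2-month libraries. Age, the tissue taken at 2 months and this difference between the libraries cannot be told apart in these comparisons.

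From 2 to 6 months, 7 of 81 nuclear subunits were called lower and none higher, at a background of 3.59% of all genes (1.77% higher and 1.83% lower). They were Ndufa1, Ndufs6 and Ndufs8 of complex I, Uqcrb and Uqcrq of complex III, and Atp5h and Atp5k of complex V, with log2 changes between -0.63 (Atp5k) and -0.35 (Ndufs8). Atp5k, subunit e of the membrane part of ATP synthase, had 89.0, 59.7 and 61.2 CPM at 2 months and 54.3, 45.3 and 36.3 CPM at 6 months, a change of -0.63 ± 0.16 (adjusted p = 0.0290). Uqcrq changed by -0.44 ± 0.12 (adjusted p = 0.0478) and Ndufa1 by -0.49 ± 0.12 (adjusted p = 0.0294). Without replicate 11 none of the 7 and 0.52% of all genes were called. Leaving out 2 months replicate 12 or 13 gave 31 or 32 nuclear subunits and 5.42% or 7.97% of all genes. Leaving out 6 months replicate 32, 33 or 34 gave 2, 0 or 1 nuclear subunits and 1.12%, 0.302% or 5.33% of all genes, and DESeq2 called 21 nuclear subunits and 8.6% of all genes. No mitochondrially encoded subunit was called by edgeR or DESeq2, and 1 had an unadjusted p below 0.05. Of the myelin markers 8 of 10 were lower, with sums of 16448 to 23361 CPM at 2 months and 9011 to 12941 CPM at 6 months, and hypothalamus markers were higher in 6 of 14 cases. Their part in the result was not tested.

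Between 6 and 18 months no nuclear or mitochondrially encoded subunit was called by edgeR or DESeq2, at a background of 0.0177% of all genes, which is 3 genes. At an unadjusted p below 0.05 there were 3 nuclear and 9 mitochondrially encoded subunits and 1315 genes in all, and DESeq2 called 18 genes. The mitochondrially encoded subunits had a median of -0.38 and the nuclear ones a median of -0.049. ND2 had 4586, 4646 and 5211 CPM at 6 months and 3123, 3461 and 3392 CPM at 18 months, which do not overlap, with a difference of -0.53 ± 0.13 (adjusted p = 0.275). ATP6 and ND1 gave -0.49 ± 0.16 (adjusted p = 0.485) and -0.38 ± 0.12 (adjusted p = 0.457), likewise without overlap.

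Over the 14 libraries from 2 to 24 months, the slope of log2 expression on age was called for 6 of 13 mitochondrially encoded subunits, for 1 nuclear subunit and for 1 factor (Ndufaf2), all downward. The background was 7.43% of 16633 genes (3.08% higher and 4.35% lower). ATP6 had a slope of -0.037 ± 0.0076 per month (adjusted p = 0.0118), and its libraries held 230.1, 119.5 and 142 CPM at 2 months, 149, 125 and 127 CPM at 6 months and 98.1 and 96.0 CPM at 24 months. The slopes of ND2, ND1 and COX3 were -0.034 ± 0.0072 (adjusted p = 0.0133), -0.028 ± 0.006 (adjusted p = 0.0133) and -0.033 ± 0.0079 (adjusted p = 0.0211) per month. COX2 and CYTB were the other mitochondrially encoded genes called.

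Cox5a was the only nuclear subunit called of the 82, a share below the 7.43% of all genes called for the slope. It had a slope of -0.021 ± 0.0049 per month (adjusted p = 0.0216), with 152, 113 and 127 CPM at 2 months and 89.8 and 97.1 CPM at 24 months. No nuclear subunit was called without 2 months replicate 13 or without 24 months replicate 2, and 2 were called without 6 months replicate 33, 12 months replicate 26 or 24 months replicate 4. Of the exon bases of Cox5a, 12.8% are overlapped by Gm26631 on the opposite strand. Sdha showed a slope of 0.00034 ± 0.003 per month (adjusted p = 0.956).

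The calls of this trend depend on the 2-month libraries. With 6 to 24 months alone, no member and no gene at all was called. In that fit the median slope was still -0.0205 per month over the mitochondrially encoded subunits and -0.0012 over the nuclear ones. The mitochondrially encoded sums were 45956 to 52176 CPM at 6 months. They lay lower at 12 months (37158 to 44312 CPM), 18 months (36823 to 41656 CPM) and 24 months (40427 to 41017 CPM). Without replicate 11, by comparison, 5 mitochondrially encoded subunits and Cox5a were still called, all among those called with it, beside 4.32% of all genes. All 10 myelin markers and 6 of 13 midbrain and hindbrain markers fell over the same ages, and 2 of 14 hypothalamus markers rose. Among the 20 listed regulators, Ppargc1a (-0.02 ± 0.0047 per month, adjusted p = 0.0196), Esrra, Esrrb and Esrrg fell. They are given as single genes, not as a result for the list. How far these changes bear on the slopes of the subunits was not tested.

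Over all 9 ages, the F-test called 71 of 81 nuclear subunits (32 of 36 in complex I, 2 of 4 in complex II, 7 of 8 in complex III, 16 of 18 in complex IV and 14 of 15 in complex V), 8 of 10 factors and all 13 mitochondrially encoded subunits, at a background of 76.8% of all genes. The nuclear subunits not called were Ndufa7, Ndufa11, Ndufb7, Ndufv3, Sdhb, Sdhd, Uqcrfs1, Cox7b2, Ndufa4l2 and Atp5c1. At 6 months, 37 nuclear subunits were higher and 4 lower than at P5, and 12 of 13 mitochondrially encoded subunits were higher, at a background of 60.5% of all genes (30.3% higher and 30.2% lower). Of the 50 nuclear subunits called between P5 and 3 weeks, 36 were also called there, a comparison that shares the P5 libraries. Sdha, at 598, 553 and 618 CPM, differed from P5 by 1.18 ± 0.058 (adjusted p = 9.62e-15).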

How the data were processed

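The authors deposited 1 file of whole-number read counts per gene for each of 29 libraries. HISAT2 2.1.0, HTSeq 0.9.1 and the build mm10 (GRCm38) are named in the submitters' processing notes; the annotation and strand setting of the counting were not given in these sources. Reads that map to several genes or to nuclear copies of mitochondrial sequence can be lost or split in such counts. Summary lines that name no gene (26.1% to 32.5% of reads) were left out.

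The members and all gene lists were chosen with earlier results of these data known. Library sizes were scaled by TMM, CPM were computed from them, and genes were filtered with filterByExpr in edgeR 4.0.16 (R 4.3.3). All 9 ages were fitted together with edgeR's quasi-likelihood test, and p-values were adjusted by Benjamini-Hochberg over all genes tested; the adult slope was fitted on 14 libraries from 2 to 24 months. All adjusted p-values are from edgeR unless DESeq2 1.42.0 is named. Errors of fold changes are SE.

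In each comparison and complex, the called members with the largest and smallest log2 change were named, and for the slope up to 4 of smallest p in each direction. Isoform pairs, core subunits and, at 3 weeks against P5, all mitochondrially encoded subunits were named whatever the result, as were up to 3 called genes of each list. On simulated counts for 3 weeks against P5 (16686 genes), 61% of 1.5-fold and 87% of 2-fold changes were recovered with 7 false calls. For the slope (16498 genes) the shares were 62% and 89% with 2 false calls. Each simulation changed only 100 genes per fold size, in both directions. In the data 59% of all genes were called between P5 and 3 weeks, so these shares need not hold for the comparisons reported.

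Gene positions and exon lengths are from GENCODE M21 (GRCm38), in which 91 of 92 nuclear rows were found (not Atp5o). Alternatives were another normalisation, no filter, all 29 files, fits on 2 ages, a replicate block, DESeq2 and each library left out.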

Additional observations from a re-analysis of the deposited data

Results flagged for a closer look

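Of 122 groups of 4 libraries that were checked for a library far from the others, 7 had a gap to the nearest library, as a share of the group's range, above Dixon's 95% critical value; chance alone gives about 1 in 20 such groups. At 4 weeks, ATP8 stood apart in replicate 2 (13.9 CPM against 1.95 CPM in the nearest library, a gap of 0.957 of the range), Ndufb10 in replicate 2 (106 against 117 CPM, 0.945) and Atp5k in replicate 1 (85.6 against 63.0 CPM, 0.862). At 5 weeks, Atp5k stood apart in replicate 3 (41.3 against 49.9 CPM, 0.911), Uqcrc1 in replicate 4 (209.7 against 220.2 CPM, 0.896), Ndufb5 in replicate 1 (109.7 against 104 CPM, 0.863) and Cox8b in replicate 2 (1.38 against 0.271 CPM, 0.848). Groups of 3 libraries, such as those at P5, 3 weeks and 2 months, were not checked in this way.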

How the results depend on the processing

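Replicate numbers did not pair the libraries (correlations of same-numbered deviations of 0.042, 0.13 and 0.053 for 3 weeks with P5, and -0.12, -0.23 and -0.12 for 5 weeks with 3 weeks; at 3 weeks against P5, numbers 1 and 2 but not 3 correlated best with their own number). With a replicate block, 13 genes in place of 364 were called at 5 weeks against 3 weeks, and no other count of calls moved by over 1.5 times. With all 29 files, 0 nuclear, 0 mitochondrially encoded and 340 genes were called at 3 weeks against P5, 0, 0 and 1 at 2 months against 5 weeks, 1, 1 and 484 in the F-test, 0, 0 and 0 for the slope, 0 nuclear and 0 genes at 6 against 2 months, and 0 genes at 5 against 3 weeks and at 18 against 6 months; the cause was not tested. Fits on 2 ages alone called 2 nuclear subunits at 5 against 3 weeks, 7 nuclear, 3 mitochondrially encoded and 1534 genes at 2 months against 5 weeks, 0 nuclear and 0 genes at 6 against 2 months and 0 genes at 18 against 6 months. P5 replicate 3 alone gave 33 nuclear subunits, and no filter gave 4 at 6 against 2 months. The library set as a term gave 20 genes at 5 against 3 weeks. This term placed 4-week replicates 1 and 2 with 3 weeks, and 4-week replicates 3 and 4 with 5 weeks. The sample labels do not name these sets. DESeq2 called 21 nuclear and 1280 genes at 6 against 2 months, 18 genes at 18 against 6 months, and 4 nuclear and 2027 genes for the slope. With 6 to 24 months alone the slope gave 0, 0 and 0. Chosen after seeing the data, 6 months in place of 2 months called 0 nuclear and 3 mitochondrially encoded subunits against 5 weeks, and 5 weeks in place of 2 months 0, 3 and 2193 genes against 6 months. Without scaling factors the sums at 3 weeks over P5 were 1.27 (complex I), 1.47 (II), 1.16 (III) and 1.14 (V).

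With 1 library left out at a time, 3 weeks against P5 called 42 to 47 nuclear, 12 mitochondrially encoded and 9182 to 9390 genes, and the sums stood at 1.32 to 1.36 (complex I), 1.54 to 1.56 (II), 1.20 to 1.25 (III), 1.30 to 1.39 (IV), 1.18 to 1.22 (V) and 1.55 to 1.74 (mitochondrially encoded). The counts were 6 to 45, 2 to 8 and 1778 to 2858 at 2 months against 5 weeks, 0 to 32, 0 and 51 to 1348 at 6 against 2 months, 0 to 2, 4 to 7 and 443 to 1557 for the slope, 67 to 76, 13 and 12272 to 13191 in the F-test, 0, 0 and 183 to 256 at 5 against 3 weeks, and 0, 0 and 0 to 6 at 18 against 6 months. The sign changed in 20 values of named members, 5 of them with a library left out. At 3 weeks against P5, Cox7a2 was -0.0010 without a filter, -0.071 without scaling factors, -0.0096 with mitochondrial genes left out of the scaling, -0.0065 with the replicate block, -0.035 with P5 replicate 3 alone, -0.0014 with DESeq2, and between -0.073 (without 3 weeks replicate 3; -0.047 without P5 replicate 2, -0.033 without 3 weeks replicate 1) and 0.11 with a library left out. Cox6b1 was -0.011 without scaling factors and between -0.0042 (without P5 replicate 2) and 0.12 with a library left out. Cox7a2l was 0.033 with P5 replicate 3 alone, 0.19 with 6 months in place of 3 weeks and between -0.055 and 0.023 (without P5 replicate 1) with a library left out. Some called changes also changed sign: with 6 months in place of 2 months, Ndufb5 was -0.00021 (0.23 at 2 months), Cox7b -0.018 (0.38) and Atp5k -0.083 (0.54) against 5 weeks, and with 6 months in place of 3 weeks, Ndufc2 was -0.0012 (0.21 at 3 weeks) and Uqcr11 -0.012 (0.55) against P5. Atp5g2, not called at 3 weeks, was -0.15. Of the other values of named members, 373 with a library left out and 421 under other settings kept their direction and their side of the threshold, 65 and 108 kept only the direction and lost the call, and 2 and 9 gained one. At this depth, genes such as Cox8b, Cox7b2 and ATP8 rest on few counts.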

Other observations

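Cox8b, the muscle form of subunit VIII, varied between libraries of the same age. It had 5, 53 and 123 counts in the 12-month libraries and 70, 37 and 48 counts at 18 months, against 0 to 4 at P5 and 3 weeks. The summed level of 8 markers of the choroid plexus epithelium ranged from 55.7 CPM in a P5 library to 7036 CPM across the 28 libraries. ATP8 also varied within an age, with 54, 507, 58 and 38 counts at 4 weeks. No explanation of these values was tested.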
